A study of Mus musculus with 12 samples.

Results

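The enteroendocrine hormone genes of the proximal colon are described here as 10 genes picked by symbol from the 38924 genes counted in each mouse: Chga and Chgb, which encode granule proteins, Tph1, which encodes the enzyme that starts serotonin synthesis in the gut, and the peptide hormone genes Gcg, Pyy, Insl5, Sct, Sst, Cck and Nts. RNA-Seq was carried out on proximal colonic mucosa of 12 female C57BL/6 mice aged 6 weeks, 6 of genotype APC Min/+ and 6 wild type (WT), with no treatment in either group. APC Min/+ mice carry 1 germline copy of Apc with a truncating mutation in every cell, so the genotype is not restricted to the epithelium, and the study examined them before polyps had formed. The genotypes were housed in separate cages and arrived in shipments that the labels do not assign to mice, so cage and genotype cannot be told apart and shipment could not be used. The question put to the data was how these genes differ between the genotypes, and how they relate to the position along the colon, read from the posterior homeobox gene Hoxb13.

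Enteroendocrine cells are scattered single cells of the gut epithelium that sense the contents of the lumen and release hormones from dense-core granules. Their hormones change along the gut. Enterochromaffin cells make serotonin, L cells make the proglucagon products GLP-1 and GLP-2 together with peptide YY and, towards the distal colon, insulin-like peptide 5, whereas secretin, cholecystokinin and neurotensin are best known from the small intestine. In bulk RNA, fewer cells of a type and less RNA per cell cannot be told apart.

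Total counts on genes lay between 50313805 and 197914821 per mouse, and 3 counts corresponded to at most 0.0596 CPM (counts scaled to a common library size). For Apc, APC Min/+ mice had 192 ± 16.97 CPM (SD, n = 6) and WT mice 186 ± 30.7 CPM (SD, n = 6). Counts per gene cannot tell its 2 alleles apart. APC Min/+ mice M10_2 and M13_1 stood apart from the other 10 mice in posterior homeobox genes. Hoxb13, normally confined to the most distal colon and rectum, reached 378 CPM in M10_2 and 275 in M13_1, and lay between 0 and 0.744 CPM in the others. Hoxa13 was at 76.5 and 61.8 CPM against 0.921 to 2.75 CPM, and Hoxd13 at 12.4 and 209 CPM against 0.0553 to 0.533 CPM. Since both are APC Min/+, their regional level and their genotype cannot be told apart, and the members' genotype results are given with and without them. The label mucosa was checked against smooth muscle genes: Myh11, the smooth muscle myosin, lay between 1423 and 2401 CPM in all 12 mice, so smooth muscle RNA was counted in every sample.

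The stretches of DNA upstream of 5 members are shown because these genes carry the contrast described below: Insl5 and Pyy were high in M10_2 and M13_1, Sct and Nts were low there, and Gcg is the L-cell partner of the first pair. They are RefSeq sequences of GRCm38.p6, read on the minus strand, on which all 5 genes lie, and begin 250 bases before a RefSeq start site, the first listed where a gene has several. For Insl5 and Nts they stop where the gene begins in GENCODE M21, further upstream than the RefSeq start site. Capitals mark CAGATG, the E-box form bound by NEUROD1-type factors of endocrine cells. The Insl5 stretch is chr4:103026843-103026978, the Pyy stretch chr11:102107833-102108082, the Gcg stretch chr2:62483654-62483903, the Sct stretch chr7:141279134-141279383 and the Nts stretch chr10:102490487-102490668.
Insl5: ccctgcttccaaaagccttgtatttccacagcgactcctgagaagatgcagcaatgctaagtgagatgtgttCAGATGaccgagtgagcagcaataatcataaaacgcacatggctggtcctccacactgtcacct
Pyy: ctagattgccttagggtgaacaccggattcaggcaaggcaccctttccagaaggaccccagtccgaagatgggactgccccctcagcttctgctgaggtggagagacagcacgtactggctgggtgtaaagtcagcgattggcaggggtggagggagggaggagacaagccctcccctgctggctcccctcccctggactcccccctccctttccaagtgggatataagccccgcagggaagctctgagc
Gcg: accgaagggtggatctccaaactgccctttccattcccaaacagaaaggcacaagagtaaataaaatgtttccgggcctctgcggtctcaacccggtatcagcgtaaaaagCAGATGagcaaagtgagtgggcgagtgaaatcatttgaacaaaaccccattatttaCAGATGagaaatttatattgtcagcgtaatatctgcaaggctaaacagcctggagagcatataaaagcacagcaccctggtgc
Sct: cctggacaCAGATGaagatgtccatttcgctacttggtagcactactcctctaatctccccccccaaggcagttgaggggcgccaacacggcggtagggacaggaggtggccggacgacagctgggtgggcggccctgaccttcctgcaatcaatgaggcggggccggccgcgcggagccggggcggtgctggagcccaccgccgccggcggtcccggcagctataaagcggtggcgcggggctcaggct
Nts: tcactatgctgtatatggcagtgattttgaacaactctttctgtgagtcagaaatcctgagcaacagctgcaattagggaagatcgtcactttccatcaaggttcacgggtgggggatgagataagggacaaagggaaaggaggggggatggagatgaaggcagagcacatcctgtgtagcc

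Both strands of the 250 bases before each start site were searched for CAGATG and for CAATAAA, a core bound by posterior HOX and CDX proteins. All 10 members had a RefSeq entry, with 13 start sites between them. CAGATG was present for 4 members, Gcg with 2 matches, and Insl5, Sct and Cck, and in 14.4% of all 32851 windows of this length. In Insl5 it lay 178 to 173 bases before the RefSeq start site and in Sct 242 to 237 bases. CAATAAA was found for 0 members, with 4.2% of all windows holding it. Pyy and Nts held neither run of letters. Members with a match thus included Insl5, which was high in M10_2 and M13_1, and Gcg, Sct and Cck, which were low there.

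In WT mice the members were all expressed, over a wide range. Compared per length as RPKM (CPM divided by the gene's length in kilobases), Chgb was highest at 97.2 ± 17.07 RPKM (SD, n = 6), and Sct at 62.9 ± 15.1, Chga at 57.5 ± 12.5 and Gcg at 56.2 ± 18.4 RPKM (SD, n = 6) followed. Sct exceeded Chga in 3 of 6 WT mice and Chga exceeded Gcg in 4, so these 3 neighbours did not differ beyond their spread. Nts came next at 41.2 ± 21.9 RPKM, Pyy at 32.5 ± 10.8 and Sst at 21.5 ± 8.22 RPKM (SD, n = 6). Gcg was above Nts in 6 of 6 mice, Nts above Pyy in 5 and Pyy above Sst in 5. Tph1 stood at 10.96 ± 2.81 RPKM, below Sst in 6 of 6 mice. Insl5 at 2.54 ± 1.56 and Cck at 1.75 ± 0.425 RPKM (SD, n = 6) closed the order, with Insl5 above Cck in 4 of 6. Within the WT group the highest mouse exceeded the lowest by between 1.66-fold for Chgb and 4.35-fold for Insl5.

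Between genotypes, 0 of the 10 members passed edgeR's quasi-likelihood test, with calls set at an FDR (Benjamini-Hochberg) below 0.05 together with at least 2-fold change, and 0% of the 20311 genes tested did. All 10 members passed the filter on low counts. Their FDRs lay between 0.908 and 0.967. DESeq2 called 27 genes and edgeR's likelihood ratio test 15, among them 0 members. An unadjusted p under 0.05 was reached by 1 of 10 members, Insl5, against 5.27% of all genes. For 0 members did every mouse of 1 genotype lie above every mouse of the other, which held for 0.118% of all genes. The median log2 fold change was -0.43 over the members and -0.01 over all genes tested, and -0.16 over the members without M10_2 and M13_1. With all mice 3 members were higher in APC Min/+ mice. M10_2 and M13_1 lay at an end of the range for 9 of the members, as the plot of CPM by mouse shows.

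**Figure D1:**
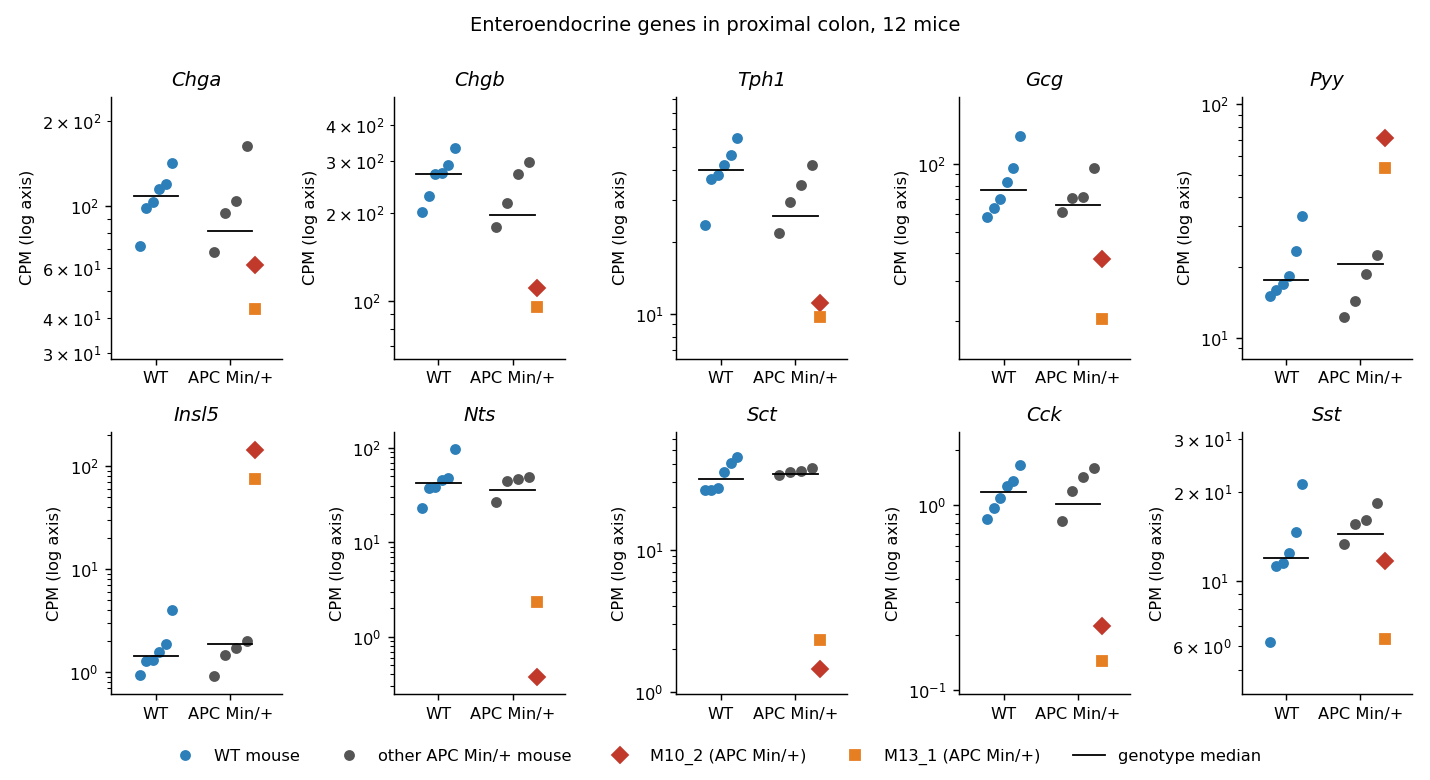
TMM-scaled CPM on log axes for the 10 genes in 6 WT and 6 APC Min/+ mice, with 1 point per mouse, a line at each genotype's median, and APC Min/+ mice M10_2 and M13_1 as a diamond and a square. These 2 mice lie above the other 10 for Pyy and Insl5 and below them for Chga, Chgb, Tph1, Gcg, Nts, Sct and Cck.

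Chga (ENSMUSG00000021194.5, chr12:102554969-102565028) encodes chromogranin A, an acidic protein that packs hormones into granules. Its lowest, median and highest CPM were 43.0, 81.4 and 163 in APC Min/+ mice and 72.3, 109 and 142 in WT mice. The genotypes overlapped widely, with a log2 fold change of -0.28 (95% interval -0.87 to 0.31). Chgb (ENSMUSG00000027350.8, chr2:132781278-132795079), the related granule protein chromogranin B, had 94.9, 197 and 299 CPM in APC Min/+ mice and 200.4, 272 and 333 CPM in the WT group. This gave a log2 fold change of -0.45 (95% interval -1.01 to 0.11). M10_2 and M13_1 were the 2 lowest of all 12 mice for both genes, at 61.6 and 43.0 CPM for Chga and at 110 and 94.9 CPM for Chgb, whereas the other 10 began at 68.7 and 178 CPM. The ratio of Chgb to Chga was 1.79 and 2.21 in these mice and 1.83 to 3.95 in the others, so the pair was low together. Relative to the epithelial gene Epcam, which stood at 1362 and 1284 CPM against 1239 to 1624 CPM, Chga was also below the others, at 0.0453 and 0.0335 against 0.0468 to 0.110.

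Tph1 (ENSMUSG00000040046.7, chr7:46644641-46672537), whose product tryptophan hydroxylase limits serotonin synthesis in enterochromaffin cells, had 9.70, 25.7 and 42.0 CPM as lowest, median and highest value in APC Min/+ mice. The WT mice had 23.7, 40.3 and 54.5 CPM. The log2 fold change was -0.70 (95% interval -1.43 to 0.02), the member closest to the threshold after Insl5 with an unadjusted p of 0.0555 in edgeR's quasi-likelihood test and an exact permutation p of 0.0563 (two-sided, n = 6 and 6). M10_2 and M13_1 were lowest at 11.04 and 9.70 CPM, 3.40-fold and 3.87-fold below the median of the other 10. Without these 2 mice the log2 fold change was -0.34 (95% interval -0.82 to 0.15). Tph1 per Chga was 0.179 and 0.225 in the 2 mice, below the 0.233 to 0.754 of the others, although M13_1 was close to the edge of that range.

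The L-cell genes did not move as a unit. Gcg (ENSMUSG00000000394.9, chr2:62474530-62483650), the proglucagon gene, had 20.5, 65.97 and 96.2 CPM in APC Min/+ mice and 58.2, 76.5 and 133 CPM in the WT group, a log2 fold change of -0.49 (95% interval -1.18 to 0.19). Pyy (ENSMUSG00000017311.9, chr11:102106676-102107832), which encodes the appetite-reducing peptide YY, had 12.2, 20.6 and 71.9 CPM in APC Min/+ mice and 15.1, 17.7 and 33.1 CPM in the WT group, a log2 fold change of 0.65 (95% interval -0.25 to 1.55). In the 2 mice the former was low and the latter high. Gcg was at 37.8 and 20.5 CPM in M10_2 and M13_1, below all others, and Pyy was at 71.9 and 53.3 CPM, above all others. The ratio of Pyy to Gcg counts was 1.90 and 2.60 in these mice and 0.193 to 0.320 in the other 10.

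Insl5 (ENSMUSG00000066090.5, chr4:103017872-103026842) encodes a relaxin-family peptide that acts on the receptor RXFP4, and differed most. In APC Min/+ mice it was counted at 0.923 CPM in M8_2, 142 in M10_2, 1.73 in M18_2b, 75.5 in M13_1, 2.02 in M2_A and 1.48 in M20_1. In WT mice it was counted at 1.31 CPM in M17_2, 1.29 in M19_1, 1.55 in M16_1, 1.89 in M18_2a, 4.05 in M17_1 and 0.931 in M18_b. M10_2 and M13_1 thus stood far above a narrow low range that the other 4 APC Min/+ mice shared with the WT mice. The log2 fold change between genotypes was 4.34 (95% interval 1.60 to 7.08), with an unadjusted p of 0.00449 and an FDR of 0.908 by edgeR's quasi-likelihood test, 0.0608 by DESeq2 and 0.0701 by the likelihood ratio test. The paper, with edgeR at an FDR below 0.05 and a 2-fold cutoff, did list Insl5 as higher in APC Min/+ mice. It does not name the edgeR test used. Its call thus differs from the settings used here. Without M10_2 and M13_1 the log2 fold change was -0.27 (95% interval -1.105 to 0.57). Against the median of the other 10 mice, Insl5 was 93.8-fold higher in M10_2 and 49.8-fold higher in M13_1. Per Gcg it was 3.76 and 3.69 in these mice, almost the same ratio, and 0.0150 to 0.0305 in the others.

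The genes best known from the small intestine showed the opposite picture. Nts (ENSMUSG00000019890.3, chr10:102481756-102490486) encodes neurotensin, a peptide released after fat intake. It was counted in APC Min/+ mice at 27.0 CPM in M8_2, 0.374 in M10_2, 44.2 in M18_2b, 2.36 in M13_1, 46.7 in M2_A and 48.7 in M20_1. In WT mice the lowest, median and highest values were 23.4, 42.1 and 98.2 CPM. M10_2 and M13_1 lay far below all others, 120.0-fold and 18.97-fold below the median of the other 10, and the log2 fold change between genotypes was -0.78 (95% interval -2.48 to 0.92).

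Sct (ENSMUSG00000038580.6, chr7:141278330-141279133) encodes secretin, which stimulates bicarbonate secretion. Its values in APC Min/+ mice were 37.6 CPM in M8_2, 1.45 in M10_2, 33.4 in M18_2b, 2.32 in M13_1, 35.8 in M2_A and 35.3 in M20_1. The lowest, median and highest WT values were 26.4, 31.3 and 44.9 CPM. The 4 other APC Min/+ mice lay within the WT range, and M10_2 and M13_1 were 24.3-fold and 15.2-fold below the median of the other 10. The log2 fold change was -0.47 with all mice (95% interval -1.83 to 0.90) and 0.08 without the 2 (95% interval -0.27 to 0.43).

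Cck (ENSMUSG00000032532.6, chr9:121489824-121495694), the gene of the gallbladder-contracting hormone cholecystokinin, was the least expressed, with 13 to 234 counts per mouse. It had 0.144, 1.01 and 1.58 CPM in APC Min/+ mice and 0.845, 1.18 and 1.66 CPM in the WT group, a log2 fold change of -0.42 (95% interval -1.46 to 0.62). M10_2 and M13_1 were again the lowest, at 0.222 and 0.144 CPM. Sst (ENSMUSG00000004366.3, chr16:23889573-23890958) encodes somatostatin, the inhibitory hormone of D cells. It had 6.35, 14.4 and 18.3 CPM in APC Min/+ mice and 6.21, 11.97 and 21.2 CPM in the WT group, a log2 fold change of 0.07 (95% interval -0.53 to 0.67). It was the single member for which M10_2 and M13_1, at 11.7 and 6.35 CPM, stayed within the range of the others.

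**Figure D2:**
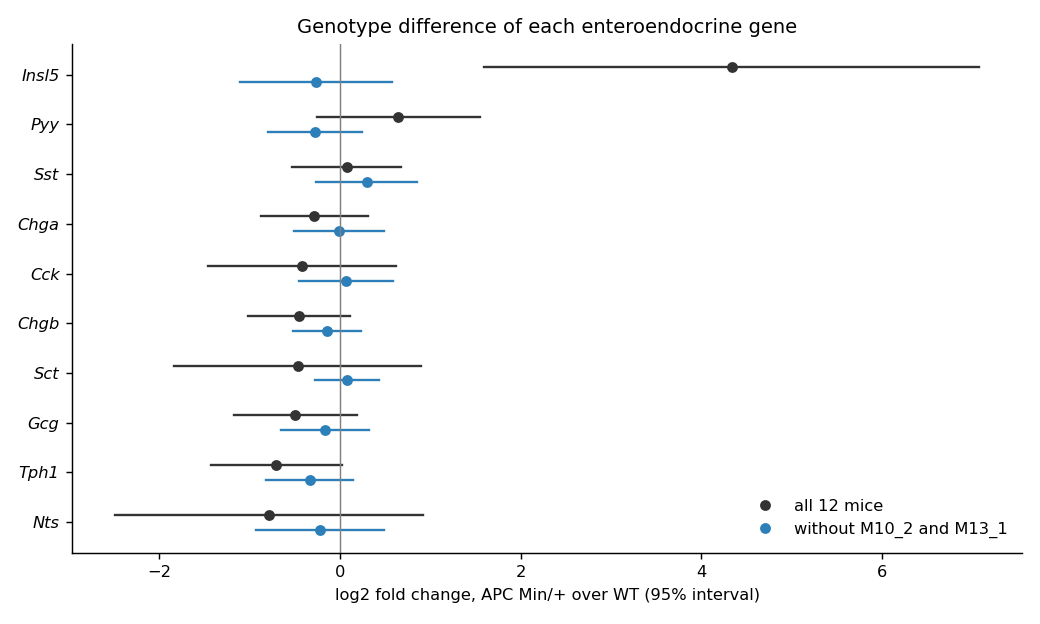
Log2 fold change of each gene between APC Min/+ and WT mice with its 95% interval from edgeR's quasi-likelihood fit, with all 12 mice (dark) and without M10_2 and M13_1 (blue). With all mice the interval of Insl5, 1.60 to 7.08, lies apart from 0, and without the 2 mice every interval crosses 0.

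Without M10_2 and M13_1, 0 of 10 members and 0 of 19978 genes were called by edgeR's quasi-likelihood test, and an unadjusted p under 0.05 was reached by 0 members and 1.59% of all genes. The 10 log2 fold changes then lay between -0.34 for Tph1 and 0.30 for Sst. Those of Chga, Chgb, Gcg and Nts were -0.01, -0.14, -0.17 and -0.22, each smaller in size than with all mice. Pyy and Insl5 went from higher to lower in APC Min/+ mice, at -0.28 and -0.27, and Sct and Cck from lower to higher, at 0.08 and 0.07. The 95% intervals of the members were narrowest for Sct, -0.27 to 0.43, and widest for Insl5, -1.105 to 0.57. Changes within these bounds are compatible with the values of these mice, and the smallest detectable change was not worked out.

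Regional identity was described by setting M10_2 and M13_1 beside the other 10 mice, with no test, because they were singled out by their Hoxb13 level. Both were above all 10 others for 2 of the 10 members, Pyy and Insl5, which held for 11.8% of all genes tested. Both were below for 7 of 10, Chga, Chgb, Tph1, Gcg, Nts, Sct and Cck, against 12.2% of all genes. M10_2, with the higher Hoxb13 and Hoxa13, was the further of the pair from the median for Insl5, Pyy, Nts and Sct, and M13_1, with the higher Hoxd13, for the other members.

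**Figure D3:**
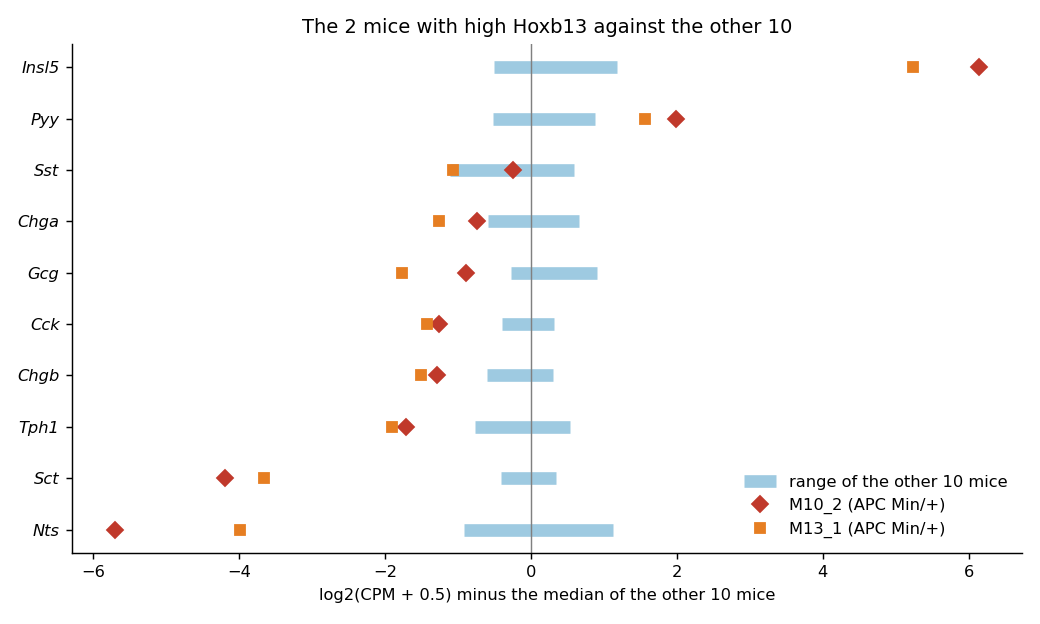
Difference in log2(CPM + 0.5) from the median of the other 10 mice for M10_2 (diamond) and M13_1 (square), with bars for the range of those 10 mice. Insl5 and Pyy lie to the right of the bars, Sst touches its bar, and Nts and Sct lie furthest to the left.

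The make-up of the peptide hormone RNA was therefore different in these mice, whereas its sum was not lower. The 7 peptide hormone genes added up to 359 RPKM in M10_2 and 220 RPKM in M13_1, against 177 to 303 RPKM in the other 10. In the 10 mice Gcg made up 20.05 to 31.3% of this sum, Sct 16.4 to 43.3%, Nts 11.2 to 27.5%, Pyy 10.8 to 17.3% and Insl5 0.662 to 1.85%. In M10_2 Insl5 made up 54.8% and Pyy 31.7%, and in M13_1 47.5% and 38.4%. Sct had shares of 0.756% and 1.98% there, Nts of 0.0886% and 0.915%, and Gcg of 7.06% and 6.23%. Sst had 5.44% and 4.83%, against a lowest value of 5.34% and a median of 11.7% in the others. For Sst, M10_2 thus stayed within the range of the others, and M13_1 lay just below it. Insl5, 9th of the 10 members per length in WT mice, was first in both mice, at 197 and 104 RPKM, and Pyy was second.

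**Figure D4:**
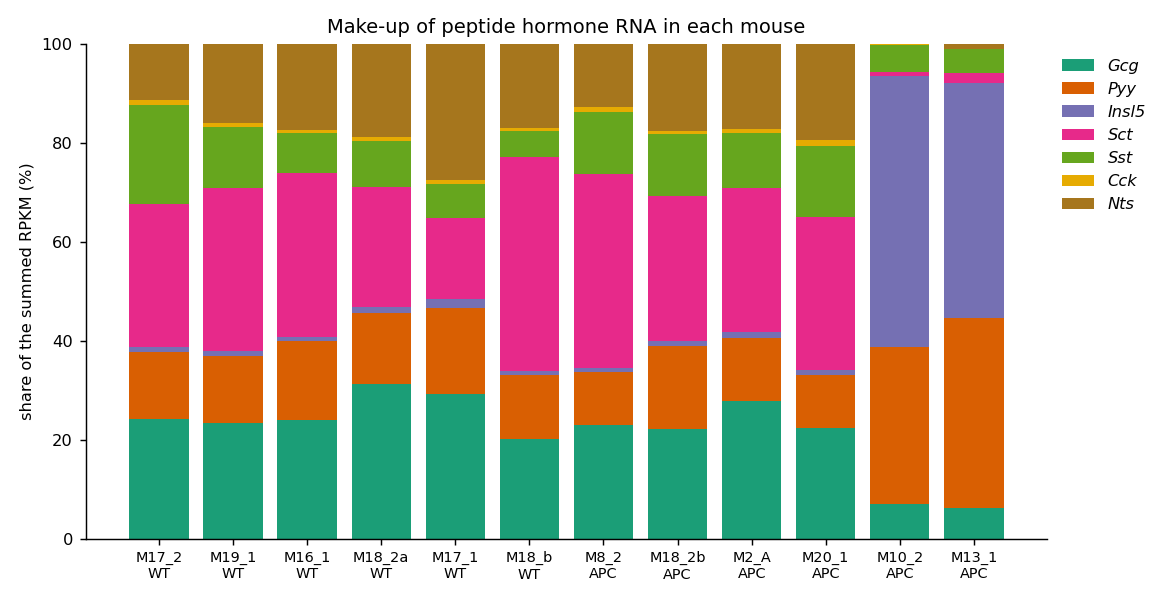
Share of each peptide hormone gene in their summed RPKM, as a percentage stacked from 0 to 100, for 6 WT mice, 4 APC Min/+ mice and, at the right, APC Min/+ mice M10_2 and M13_1. Insl5 takes 54.8% and 47.5% of the sum in the last bars and at most 1.85% elsewhere.

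Among the 10 other mice Hoxb13 had at most 0.744 CPM, and its relation to the members was tested there alone, since over 12 mice it would rest on 2 of them. In log2(CPM + 0.5), Pearson's r lay between -0.44 for Nts and 0.34 for Chga, with permutation p-values of 0.199 or more (n = 10 mice). Spearman's rho lay between -0.63 for Nts (permutation p = 0.0591) and 0.46 for Chga. Over the 10 relations the adjusted p-values were 0.649 or more for r and 0.409 or more for rho. Without M8_2 and M19_1, the mice furthest from the median Hoxb13 level, r was -0.13 for Nts and 0.61 for Chga. No relation was detectable over this range of Hoxb13.

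Among the same 10 mice, WT mouse M17_1 was the highest for 6 members, Gcg, Pyy, Insl5, Tph1, Cck and Nts, with Gcg at 133 CPM and Tph1 at 54.5 CPM. It was second lowest for Chga and Sct. Of the 10 epithelium markers 7 were lowest in this mouse, Cdh1, Krt8, Krt19, Krt20, Vil1, Cdx1 and Cdx2, with Cdh1 at 297 CPM against a median of 702 CPM. Krt18 was highest there at 314 CPM, and Lgals4 at 3380 CPM and Epcam at 1364 CPM were within the range of the others. Their part in the high hormone counts was not tested. APC Min/+ mouse M8_2 was the lowest of the 10 for 4 members, Chgb, Pyy, Insl5 and Tph1.

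Genes around the hormones were taken from lists of processing enzymes, serotonin genes, transcription factors and receptors. In each list 0 genes were called between genotypes by edgeR's quasi-likelihood test, and the number with an unadjusted p under 0.05 is given with each, to be read against the 5.27% of all genes. Without M10_2 and M13_1 that number was 0 in each of these lists. The shares of all genes for which both mice were above or below the others, 11.8% and 12.2%, are the background for those counts. Of 12 granule and processing genes 1 had such a p, and M10_2 and M13_1 were both above the others for 1, Pam, and both below for 1, Pcsk1. Pcsk1 encodes the convertase that cuts proglucagon into GLP-1, and stood at 7.87 and 6.11 CPM against 19.13 to 55.6 CPM. Pam, whose product amidates peptides such as peptide YY, stood at 284 and 272 CPM against 88.8 to 149 CPM. Cpe, the carboxypeptidase of the same granules, was at 151 and 152 CPM, within the range of 79.9 to 227 CPM. The other 10 genes of the list were not both outside, and neither count was above its background share.

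Of 8 serotonin genes tested, 4 had an unadjusted p under 0.05 in edgeR's quasi-likelihood test, against 5.27% of all genes, and 0 did without M10_2 and M13_1. M10_2 and M13_1 were both above the others for 4 and both below for 4, against 11.8% and 12.2% of all genes. Slc6a4, the transporter that takes serotonin up into epithelial cells, stood at 36.8 and 37.1 CPM against 4.85 to 6.48 CPM. The serotonin receptor gene Htr4 stood at 51.0 and 49.7 CPM against 8.83 to 12.8 CPM. Maoa, which breaks serotonin down, stood at 745 and 805 CPM against 1458 to 2403 CPM, and Maob at 41.7 and 44.6 CPM against 45.0 to 67.9 CPM. Tph1 was thus low in mice in which the transporter was high and the breakdown enzymes low. Ddc, another gene of this list, went the other way from Tph1, at 77.2 and 83.5 CPM against 34.6 to 54.8 CPM. It was named after its values were seen. Between genotypes the log2 fold change of Slc6a4 was 1.49 with all mice and 0.03 without the 2, and that of Htr4 1.12 and -0.03.

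Of 14 transcription factors of the enteroendocrine lineage tested, 3 had an unadjusted p under 0.05, against 5.27% of all genes, and 0 did without M10_2 and M13_1. Both mice were above the others for 3 and below for 0, against 11.8% and 12.2% of all genes. Foxa2, a forkhead factor, stood at 38.3 and 26.9 CPM against 3.15 to 11.7 CPM, and Isl1, a homeobox factor of several endocrine lineages, at 5.98 and 7.71 CPM against 0.698 to 2.26 CPM. Foxa1 at 71.1 and 72.9 CPM and Atoh1, the factor that all secretory cells need, at 63.1 and 36.7 CPM lay within the ranges of 45.5 to 86.3 and 32.0 to 72.5 CPM. Neurog3, which starts the endocrine lineage, stood at 1.096 and 0.552 CPM against 0.605 to 1.096 CPM. It was named after its values were seen, and was not low in both mice as Chga was.

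Of 12 nutrient and bile acid receptor genes tested, 0 had an unadjusted p under 0.05 in edgeR's quasi-likelihood test and 0 were called. Both mice were above the others for 1 and below for 3. Ffar2, a receptor for short-chain fatty acids, stood at 8.96 and 3.46 CPM against 7.13 to 15.3 CPM, and the irritant channel gene Trpa1 of enterochromaffin cells at 2.09 and 2.79 CPM against 3.66 to 7.49 CPM. Ffar4, a receptor for long-chain fatty acids, was at 16.4 and 10.3 CPM, within 9.14 to 27.6 CPM. Olfr78, an olfactory-type receptor for short-chain fatty acids, was at 9.99 and 22.9 CPM against 9.50 to 15.1 CPM.

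Of 17 genes for receptors of these hormones, 1 had an unadjusted p under 0.05, and both mice were above the others for 2 and below for 4. Npy1r, a receptor for peptide YY, stood at 18.1 and 23.1 CPM against 1.62 to 3.23 CPM, and Npy2r, another receptor for it, at 1.57 and 1.62 CPM against 5.94 to 9.09 CPM. Of the other receptors of this family, Npy4r was at 16.03 and 14.6 CPM against 9.83 to 15.2 CPM and so not outside in both mice, and Npy5r was below the filter on low counts. Both were named after their values were seen. Glp2r, the GLP-2 receptor, was at 18.22 and 19.9 CPM against 9.20 to 19.9 CPM, and the somatostatin receptor gene Sstr1 at 17.4 and 11.9 CPM, within 8.65 to 20.04 CPM. Rxfp4, the receptor gene for insulin-like peptide 5 and named after its values were seen, was at 0.0808 and 0.0663 CPM, within 0.0374 to 0.184 CPM.

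**Figure D5:**
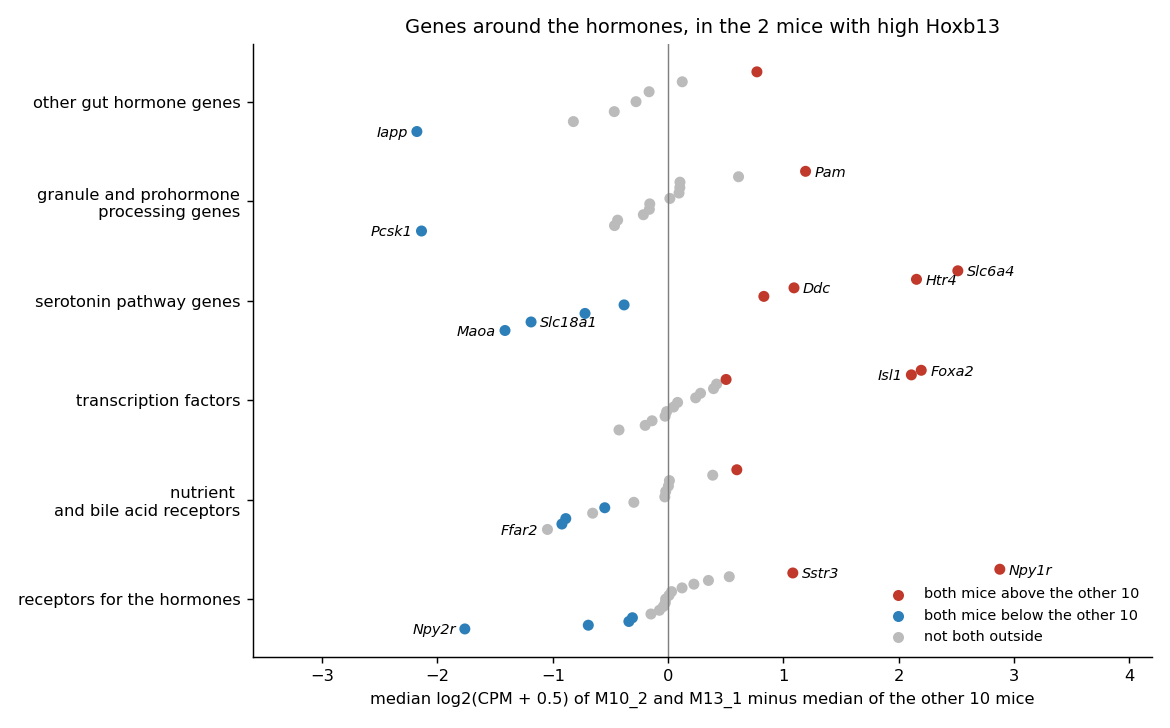
Difference in median log2(CPM + 0.5) between M10_2 with M13_1 and the other 10 mice for the genes tested in each list, red where both mice were above the other 10, blue where both were below and grey otherwise, with names where the difference exceeds 1. All 8 serotonin genes are coloured, against 2 of 12 granule and processing genes.

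Of 7 other gut hormone genes tested, 1 had an unadjusted p under 0.05, and both mice were above the others for 1 and below for 1. Iapp, the amylin gene, stood at 0.212 and 0.376 CPM against 0.708 to 6.52 CPM, and Nmu, the neuromedin U gene, named after its values were seen, at 3.98 and 4.47 CPM against 1.82 to 2.82 CPM. Vip and Tac1, which gut neurons also express, stood at 53.9 and 42.2 CPM and at 17.22 and 13.8 CPM, within 26.4 to 90.1 and 10.5 to 24.9 CPM. Gal, the galanin gene, stood at 3.76 and 1.90 CPM, within 1.67 to 10.3 CPM.

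Other cells that could hold these RNAs were checked by their markers. Of 12 enteric neuron markers, M10_2 and M13_1 were both outside the others for 0, and the summed level was 143 and 122 CPM against 68.7 to 176 CPM. The insulin genes Ins1 and Ins2 were at 0 in all 12 mice, and so was Amy2a2. The acinar genes Cpa1, Prss2, Pnlip, Cel and Ctrb1, named after their values were seen, lay between 1.16 and 2.53 CPM in APC Min/+ mouse M18_2b and between 0.481 and 1.23 CPM in WT mouse M19_1, and at most at 0.0747 CPM elsewhere. Gcg was at 70.5 and 70.0 CPM in these mice, near the median of 70.7 CPM. Chga, however, was higher in these mice than in any other, at 163 and 142 CPM against a median of 103 CPM. No other member had both of them at its top, and a link of Chga to the acinar counts was not tested. Ppy, the pancreatic polypeptide gene of the peptide YY family, stood at 9.14 and 4.02 CPM against 0.523 to 2.29 CPM. Mast cell markers matter because these cells can express Tph1. They summed to 79.2 and 59.8 CPM against 73.5 to 136 CPM, but Kit alone gave 75.2 and 54.7 CPM, so the sum mostly followed Kit. Both mice were above the others for 1 of 8, Cma1, at 1.48 and 3.34 CPM against 0 to 0.567 CPM. Both were below for 1, Tpsb2, at 0.202 and 0.0884 CPM against 0.262 to 0.841 CPM. Of 10 ileum markers both mice were below the others for 5. Their sum was 49.8 and 72.8 CPM against 889 to 1743 CPM, and Fabp2, a fatty acid binding protein of absorptive cells, stood at 32.8 and 41.8 CPM against 610 to 1437 CPM, and Slc10a2, the ileal bile acid transporter, at 2.86 and 10.3 CPM against 105 to 382 CPM. These 2 genes made up most of the sum. For the other 5 ileum markers the mice were not both outside. Among these was Fabp6, named after its values were seen, at 2.71 and 3.24 CPM against 2.55 to 50.7 CPM. Fabp2 and Slc10a2 moved with Sct and Nts, and their part in those low values was not tested. Of 10 epithelium markers both mice were above for 1, Cdh1, and below for 2, Krt20 and Cdx2, the last, an intestinal identity factor, at 49.9 and 20.6 CPM against 66.6 to 251 CPM. Of 8 smooth muscle markers both were above for 3, Des, Cnn1 and Synm, with a sum of 6059 and 6591 CPM against 4639 to 7251 CPM. The background for the counts of these marker lists is 11.8% of all genes above and 12.2% below. By edgeR's quasi-likelihood test 4 of the 8 smooth muscle markers had an unadjusted p under 0.05 between genotypes, against 5.27% of all genes. Without M10_2 and M13_1, 2 of 8 did, against 1.59%. With all mice 7 of 8 were higher in APC Min/+ mice, and 0 were called. Their bearing on the members was not tested.

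The genes most like each member were taken by Pearson's r of log2(CPM + 0.5) over the 10 mice other than M10_2 and M13_1, as a description over mice that share a platform and the range set by M17_1. Of 14773 genes compared, Insl5 was followed most closely by Sesn1 (r = 0.99), Galntl6 (r = 0.98) and Pcmtd2 (r = 0.98), and Gcg by Lrrcc1 (r = 0.99), Rmdn2 (r = 0.98) and Pla2g4a (r = 0.98). Sst was followed by Dnajc6 (r = 0.97), Slc35d3 (r = 0.95) and the convertase gene Pcsk2 (r = 0.95), and Chga by Shisa5 (r = 0.97), Rflnb (r = 0.97) and Orai2 (r = 0.95). For Sct they were Atp5b (r = 0.96), Sprr2a3 (r = 0.95) and the keratin gene Krt19 (r = 0.95), and for Nts they included Cutc (r = 0.98) and Golph3l (r = 0.97). Likeness over the 10 mice did not carry over to M10_2 and M13_1 for Insl5, where Sesn1 was below the others and Galntl6 and Pcmtd2 were not outside them. For Pyy they were 9130410C08Rik (r = 0.96), Tcrg-C1 (r = 0.95) and 2610528A11Rik (r = 0.95), all 3 of which were below the others in those mice. Chgb was followed by Cdk19 (r = 0.95), Galnt11 (r = 0.95) and Siae (r = 0.92), Tph1 by Slc28a2 (r = 0.97), Zfp72 (r = 0.96) and Aaed1 (r = 0.96), and Cck by Ppfia2 (r = 0.89), Stmn3 (r = 0.87) and Grp (r = 0.86).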

How the data were processed

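Total RNA of proximal colonic mucosa from 12 mice underwent paired-end RNA-Seq. The authors mapped reads with STAR 2.3.0 to GRCm38.p2, per the submitters' processing notes, and deposited 1 table per mouse of unnormalized featureCounts counts on 38924 Ensembl genes, with the gene length in bp. The annotation release and strand setting are not given in the sources used here, and antisense reads may have been counted. No member shares exon bases with another gene in GENCODE M21. Symbols were found for 37607 identifiers.

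The 20311 genes that reached 10 counts in 3 or more mice were fitted on genotype with edgeR 4.0.16 (TMM, quasi-likelihood test, Benjamini-Hochberg adjustment over all genes) in R 4.3.3, and intervals came from each fold change and its F statistic. CPM were TMM-scaled (factors 0.906 to 1.10), RPKM divided them by the length, and log2 values took a pseudocount of 0.5. Every member had at least 13 counts in every mouse. Fits were run on simulated counts with the same dispersion for every gene and known changes shared by all APC Min/+ mice. Since M10_2 and M13_1 stand apart in the real data, that run does not show what the fits can detect here. Correlations had 100000 permutations in SciPy 1.17.1.

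The members and gene lists were chosen with earlier results of these data known, as was the separate treatment of M10_2 and M13_1. Besides members, text names Apc, the posterior Hox genes, of each list the 2 genes with the highest mean CPM and the 2 (mean of at least 1 CPM) differing most in M10_2 and M13_1, and the 3 genes most correlated with each member. Marker lists are given by sums and examples, and some genes that this rule or a short count would name are not reported here. Other names are marked as chosen after their values were seen or give the members of a short count. The alternatives were RLE and total-count scaling, no filter, filterByExpr, DESeq2 1.42.0, the likelihood ratio test, exact permutation over the 924 splits of 6 against 6, leaving out each mouse, and leaving out M10_2 and M13_1. Each mouse is a separate sample by its label.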

Additional observations from a re-analysis of the deposited data

Results flagged for a closer look

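Within a genotype, the highest or lowest mouse was compared with its nearest neighbour for the 10 members and Hoxb13, and a gap above Dixon's 95% critical value, as a share of the group's range, was taken as far from the others. Of 22 groups, 2 had such a mouse, and chance gives about 1 in 20. Both were WT mouse M17_1. Insl5 was counted there at 4.05 CPM, with a gap of 0.693 of the range, and Nts at 98.2 CPM, with a gap of 0.677.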

How the results depend on the processing

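Among all genes, DESeq2 called 27 and the edgeR likelihood ratio test 15, and DESeq2 called 1 gene of the lists, Hoxb13 (log2 fold change 9.98, adjusted p = 0.0186). None of these settings, nor leaving out any mouse, called a member. All 10 members kept their direction under RLE size factors, total counts, no filter, filterByExpr, DESeq2, the likelihood ratio test and exact permutation. Without M10_2 and M13_1, direction turned for 4: Pyy to -0.28, Insl5 to -0.27, Sct to 0.081 and Cck to 0.070. This setting removes 2 of 6 APC Min/+ mice. Leaving out single mice moved Insl5 between 3.15 (without M10_2) and 4.74, Pyy to 0.24 and Sct to -0.22 (without M10_2), Chga to -0.54 (without M18_2b) or -0.14, Cck to -0.19 (both without M13_1) or -0.65 (without M20_1), Gcg to -0.32 and Nts to -0.45 (without M17_1), and Sst, whose direction turned, between -0.060 (without WT mouse M18_b) and 0.27 (without WT mouse M17_2). With a pseudocount of 0.1 or CPM from total counts, 0 members passed the test against Hoxb13, as with the settings used. No paired analysis was possible because the replicate numbers 1 to 6 only follow accession order, and no label says that like parts of mouse names, as in M18_2a and M18_2b, mark a litter or batch. Cck, at 13 to 234 counts, is limited by depth, and Hoxb13 had 0 to 2 counts, under the floor of 3, in 6 of the 10 other mice and 24 to 145 in 4.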
